A study of Mus musculus with 9 samples.

Results

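The Shank and Homer genes encode scaffold proteins of the postsynaptic density, the protein layer beneath excitatory synapses. The 6 genes Shank1, Shank2, Shank3, Homer1, Homer2 and Homer3 were taken by name, and each matched 1 of the 55385 gene rows in the deposited table. All 6 passed the filter on low values that left 16982 genes. The group was chosen by the tMCAO and sham levels of Shank1, Shank3 and Homer1, which were known to be lower in tMCAO libraries, so every difference between tMCAO and sham in these genes is given here as a description, without a test.

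Each of the 9 libraries held RNA of the ischemic brain hemisphere, or its sham counterpart, and each group had 3. All mice were C57BL/6 males of 8 to 10 weeks. Mice of the celastrol group had the middle cerebral artery closed with a filament for 90 min and received the plant triterpenoid celastrol at 4.5 mg/kg into the peritoneum as reperfusion began. The tMCAO mice (tMCAO stands for a transient occlusion of that artery, a model of ischemic stroke) had the same 90 min occlusion and no celastrol. Sham mice were operated on but the artery was not occluded. The labels mention no vehicle injection and no time from reperfusion to sampling. They do not say how many animals stand behind a library, so a p-value here reflects the spread among libraries, which may be technical.

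Libraries held 60392960 to 75158625 estimated counts (median 68726348), and no pair of replicates agreed within sampling noise (chi-square divided by its degrees of freedom was 77.8 or more). Markers of neurons, astrocytes and oligodendrocytes were present in every library, while 5 of 6 cerebellar markers fell under the filter and 1 of those, Gabra6, had 0 counts in all 9 libraries. Markers of deep brain regions varied between libraries of the same group. The 5 thalamic markers summed to 84.1, 56.4 and 268 CPM (counts scaled to library size) in celastrol replicates 1, 2 and 3, to 70.2, 527 and 74.9 CPM in tMCAO, and to 104.6, 50.6 and 65.2 CPM in sham. The 5 hippocampal markers were likewise highest in celastrol replicate 3 (150.4 CPM), tMCAO replicate 2 (176 CPM) and sham replicate 1 (108.7 CPM). Activity-regulated genes, which neurons induce when they fire, summed to 627, 325 and 1826 CPM in celastrol replicates 1, 2 and 3, to 676, 433 and 544 CPM in tMCAO, and to 593, 807 and 1751 CPM in sham. Celastrol replicate 3 and sham replicate 3 thus stood apart from the other 7 libraries in these genes. Striatal projection neuron markers varied too, at 199, 396 and 252 CPM in celastrol replicates 1, 2 and 3. They summed to 463, 281 and 948 CPM in tMCAO and to 237, 512 and 1513 CPM in sham.

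As background, Shank proteins form a large platform in dendritic spines. Through a PDZ domain they bind the SAPAP proteins (Dlgap genes), which in turn bind PSD-95 (Dlg4) and so the NMDA receptors. Through a proline-rich stretch they bind Homer. Homer proteins carry an EVH1 domain that also binds the metabotropic glutamate receptor encoded by Grm5 and the inositol trisphosphate receptors of the endoplasmic reticulum, and a coiled coil through which long Homer forms assemble into tetramers. A short form from the Homer1 gene, Homer1a, lacks the coiled coil, is induced by synaptic activity and loosens these links.

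The Shank genes lie on mouse chromosomes 7 and 15 and the Homer genes on chromosomes 7, 8 and 13 (mm10 coordinates as deposited). Shank1 (ENSMUSG00000038738) spans chr7:44310253-44360572 on the plus strand, Shank2 (ENSMUSG00000037541) chr7:144001928-144424494 on the plus strand, and Shank3 (ENSMUSG00000022623) chr15:89499623-89560261 on the plus strand. Homer1 (ENSMUSG00000007617) spans chr13:93299635-93405129 on the plus strand, Homer2 (ENSMUSG00000025813) chr7:81600481-81707527 on the minus strand, and Homer3 (ENSMUSG00000003573) chr8:70282827-70294361 on the plus strand. The deposited row of Homer1 covers 12 transcripts. The length implied by its counts, FPKM (fragments scaled to transcript length and library size) and library total differed by at most 1.11% between libraries. Homer1a and the long Homer1 forms could therefore not be separated. Homer3 overlaps Ddx49, an RNA helicase gene on the other strand, whose row held 211% as many counts as that of Homer3. The sources used here do not say whether counting used strand, so the level of Homer3 is uncertain. For each of the other 5 genes, every overlapping row held at most 1.04% of its counts.

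Promoter sequences are shown for Homer1, the member known as an activity-induced gene, and for Shank3, for comparison. RefSeq windows (GRCm38.p6) were available for 4 of the 6 genes. The windows run 250 bases up to the annotated start, 5′ to 3′ on the gene's strand, at chr13:93303507-93303756 (plus strand) for Homer1 and chr15:89499358-89499607 (plus strand) for Shank3. The RefSeq start of Homer1 lies inside the span of its deposited row, downstream of the row's first base, and that of Shank3 lies just upstream of its row. Capitals mark TGACG, the core motif of the cyclic AMP response element.
Homer1: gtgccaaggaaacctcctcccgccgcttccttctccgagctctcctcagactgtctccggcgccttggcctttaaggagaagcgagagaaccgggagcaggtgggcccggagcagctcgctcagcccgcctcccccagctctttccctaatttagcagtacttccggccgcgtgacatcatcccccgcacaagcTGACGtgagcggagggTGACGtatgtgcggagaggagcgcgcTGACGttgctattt
Shank3: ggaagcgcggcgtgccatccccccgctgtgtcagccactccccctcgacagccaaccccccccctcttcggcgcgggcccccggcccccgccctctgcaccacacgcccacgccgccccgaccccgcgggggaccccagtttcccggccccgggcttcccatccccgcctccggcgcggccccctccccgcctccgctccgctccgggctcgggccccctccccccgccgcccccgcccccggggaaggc

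The Homer1 window held TGACG 3 times, beginning 56, 40 and 14 bases before the start. TGACG and its reverse complement CGTCA were searched on both strands, and at least 3 matches occurred in 0.689% of 32817 mouse windows of the same length. Neither the Shank3 window nor any of the other windows of Homer1, Homer2 and Homer3 held a match, and at least 1 match occurred in 17.7% of all windows. The full element TGACGTCA, which contains that motif, was in none of the members' windows and in 1.55% of all windows. G and C made up 82.4% of the Shank3 window and 62.4% of the Homer1 window. These matches describe the letters in the windows and were not tested against the RNA levels.

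Among the Shank genes, Shank1 had the highest level per transcript length in each group. It averaged 21.7 ± 4.53 FPKM in celastrol, 16.05 ± 0.71 FPKM in tMCAO and 28.96 ± 5.14 FPKM in sham libraries (SD, n = 3 each). Shank1 encodes the Shank found almost only in brain. Its values were 16.9, 25.9 and 22.2 FPKM in celastrol replicates 1, 2 and 3, 16.5, 15.2 and 16.4 FPKM in tMCAO, and 23.5, 33.7 and 29.7 FPKM in sham. All celastrol libraries lay above all tMCAO libraries, by as little as 16.9 against 16.5 FPKM, and the celastrol and sham ranges overlapped. The tMCAO libraries were close together, with the highest 1.08 times the lowest.

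Shank3, whose loss causes autism-like behaviour in mice and Phelan-McDermid syndrome in people, had 11.94, 11.97 and 16.3 FPKM in celastrol libraries, 7.11, 8.99 and 8.48 FPKM in tMCAO libraries, and 13.6, 17.5 and 16.4 FPKM in sham libraries. The tMCAO libraries were lowest, with no overlap with either of the other groups, while celastrol replicate 3 lay within the sham range. Shank3 varied little among replicates, with a highest-to-lowest ratio of 1.36 in celastrol, 1.26 in tMCAO and 1.29 in sham libraries.

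Shank2, found at excitatory synapses of many brain regions, had 6.10, 10.01 and 17.5 FPKM in celastrol libraries, 5.52, 6.62 and 6.98 FPKM in tMCAO libraries, and 5.77, 10.03 and 23.1 FPKM in sham libraries. All 3 groups overlapped. Replicate 3 was highest in each, at 2.88 times the lowest library in celastrol, 1.27 times in tMCAO and 3.997 times in sham.

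**Figure D1:**
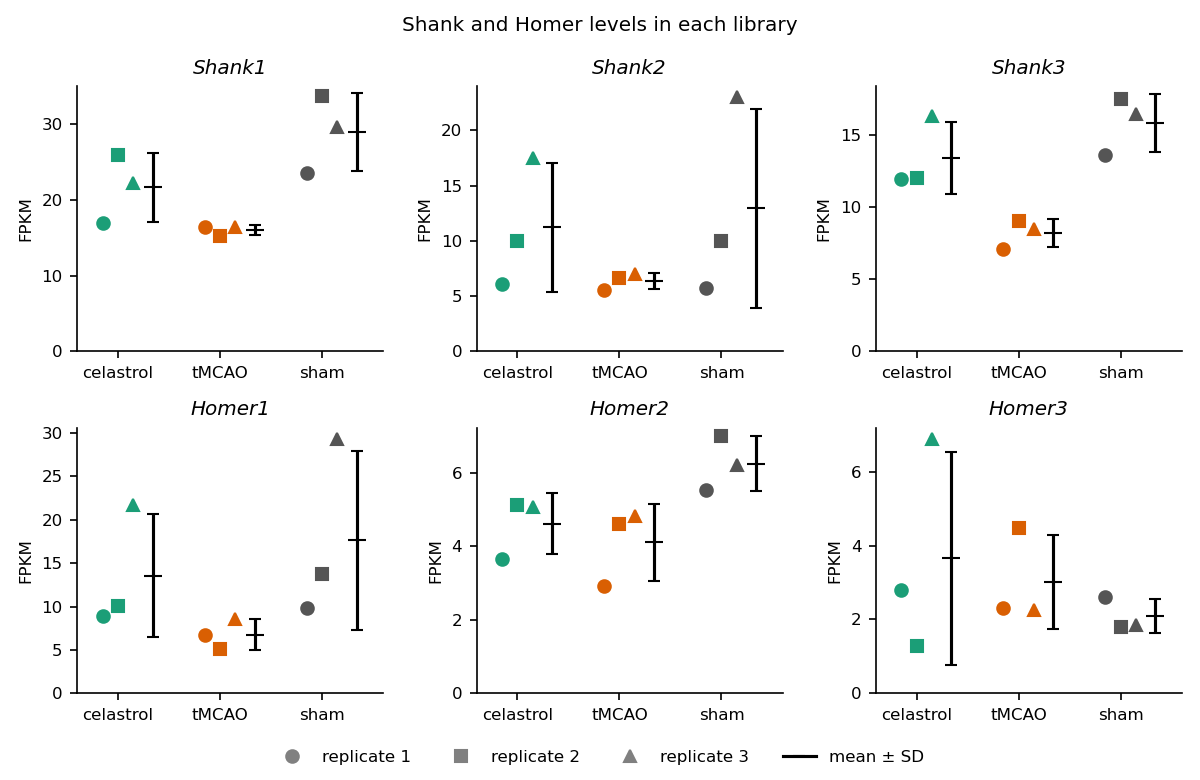
Level of each Shank and Homer gene (FPKM, vertical axis from 0) in celastrol, tMCAO and sham libraries, with 1 point per library, shapes for replicates, and the mean ± SD in black. For Shank3 the 3 tMCAO libraries (7.11 to 8.99 FPKM) lie under all others, while Homer1 and Shank2 are highest in celastrol replicate 3 and sham replicate 3.

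Homer1, the most abundant Homer gene by mean in each group, had 8.89, 10.1 and 21.7 FPKM in celastrol libraries, 6.70, 5.07 and 8.57 FPKM in tMCAO libraries, and 9.88, 13.7 and 29.3 FPKM in sham libraries. The tMCAO libraries lay below those of the other groups. Celastrol replicate 1 exceeded tMCAO replicate 3 by only 8.89 against 8.57 FPKM, and the highest sham library was 2.97 times the lowest.

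Homer2, also called Cupidin, had 3.67, 5.12 and 5.08 FPKM in celastrol libraries, 2.91, 4.61 and 4.83 FPKM in tMCAO libraries, and 5.53, 7.02 and 6.21 FPKM in sham libraries. The sham libraries were higher than the other 6, and the celastrol and tMCAO ranges overlapped.

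Homer3, which is best known from cerebellar Purkinje cells, had 2.80, 1.29 and 6.88 FPKM in celastrol libraries, 2.31, 4.47 and 2.24 FPKM in tMCAO libraries, and 2.61, 1.81 and 1.85 FPKM in sham libraries. Its highest value, in celastrol replicate 3, was 5.34 times its lowest, in celastrol replicate 2. The 3 groups overlapped. The libraries with the highest thalamic and hippocampal marker sums in their group, celastrol replicate 3, tMCAO replicate 2 and sham replicate 1, were also highest in Homer3 in their group. The part of those regions in the Homer3 values was not tested.

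By mean FPKM the order in tMCAO libraries was Shank1, Shank3, Homer1, Shank2, Homer2 and Homer3. Shank1 lay above the next gene and Shank2 above Homer2 with no overlap, and the other neighbours overlapped. In celastrol and sham libraries Homer1 followed Shank1 and Shank3 followed Homer1, but the ranges of Shank1, Homer1, Shank3 and Shank2 each overlapped the next, so that between libraries this order did not exceed the spread. Within libraries, Shank1 lay above Homer1 and above Shank3 in 9 of 9, by as little as 22.2 against 21.7 FPKM for Homer1 in celastrol replicate 3, and Homer1 lay above Shank3 in 3 of 9.

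The composition of each family was compared as the share of each gene in the family's summed FPKM. Shank1 made up 47.4 ± 7.29% in celastrol, 52.5 ± 3.72% in tMCAO and 50.95 ± 6.98% in sham libraries (SD, n = 3 each). Shank3 made up 29.4 ± 4.60%, 26.7 ± 2.37% and 27.98 ± 3.99% in celastrol, tMCAO and sham libraries. The summed Shank FPKM was 46.3 ± 10.6 in celastrol, 30.6 ± 1.40 in tMCAO and 57.7 ± 13.5 in sham libraries, so that the total differed between groups by more than the shares did. Homer1 made up 57.9, 61.1 and 64.4% of the Homer sum in celastrol libraries, 56.2, 35.8 and 54.8% in tMCAO libraries, and 54.8, 60.9 and 78.5% in sham libraries. Homer3 reached its largest share, 31.6%, in tMCAO replicate 2 and its smallest, 4.94%, in sham replicate 3.

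**Figure D2:**
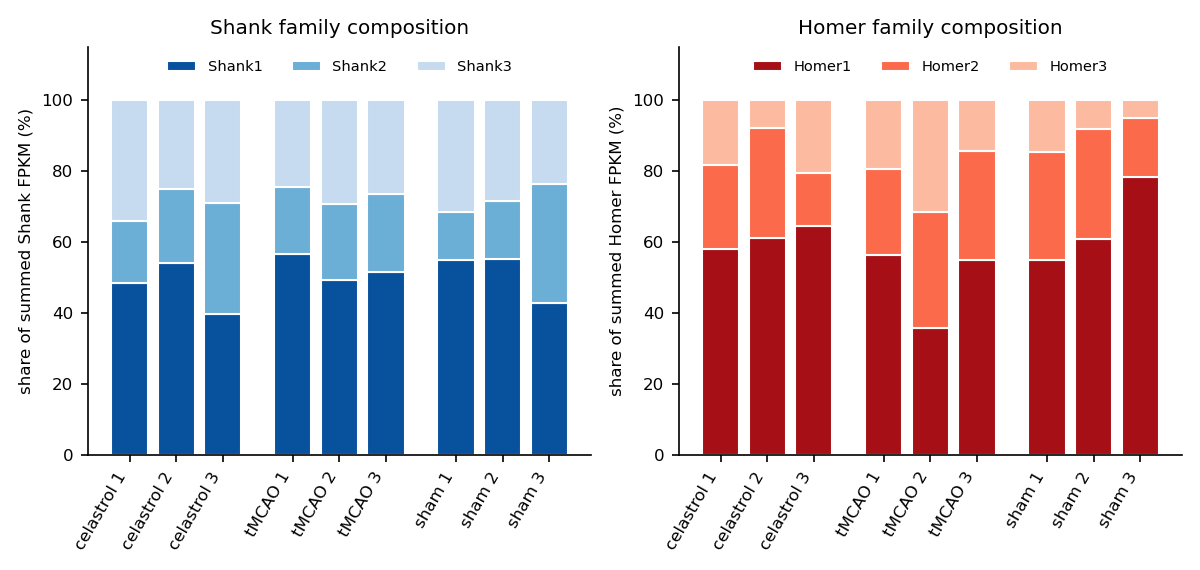
Share of each gene in the summed FPKM of its family (%, vertical axis), with 1 stacked bar per library, grouped as celastrol, tMCAO and sham. Shank1 holds 39.6% to 56.6% of the Shank sum in every library, while the Homer1 share ranges from 35.8% in tMCAO replicate 2 to 78.5% in sham replicate 3.

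The comparison of celastrol with tMCAO asks what the drug changes after occlusion. All 6 genes had higher fitted levels in celastrol libraries (median log2 fold change 0.62, against −0.00 over all genes tested), and 0 of 6 passed the test. Over the whole table, the quasi-likelihood test of edgeR (Benjamini-Hochberg adjusted) called 0 of 16982 genes (0.0%) at an adjusted p under 0.05, with 698 genes at an unadjusted p under 0.05, while DESeq2 called 19 and limma 0. For Shank1, Shank3 and Homer1 the celastrol libraries lay above the tMCAO libraries without overlap (3 of 6 genes, against 2.73% of all genes tested), and none lay below without overlap (0 of 6, against 5.25%). This contrast shares the tMCAO libraries with the one in which these genes were known to be low, so their low tMCAO values enter both. The intervals, p-values and ranks of Shank1, Shank3 and Homer1 here are therefore not independent of how the group was chosen. They are given as a description.

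Shank3 was 1.68-fold higher in celastrol than in tMCAO libraries, at 13.4 ± 2.48 FPKM in celastrol and 8.20 ± 0.97 FPKM in tMCAO (SD, n = 3 each). Its log2 fold change was 0.75 ± 0.17 (SE; 95% interval 0.37 to 1.13, not adjusted for the number of genes), higher in 3 of 3 libraries. It ranked 16 by p among the 16982 genes and had an edgeR adjusted p of 0.976, or of 0.0582 with DESeq2. With 1 library left out at a time, the value ran from 0.59 to 0.85.

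Shank1 had a log2 fold change of 0.49 ± 0.20 (SE; interval 0.03 to 0.95; edgeR adjusted p = 0.976) for celastrol over tMCAO, which was 0.29 without celastrol replicate 2. Homer1 had 1.05 ± 0.46 (SE; interval 0.00 to 2.09; edgeR adjusted p = 0.976), at 13.5 ± 7.06 FPKM in celastrol and 6.78 ± 1.75 FPKM in tMCAO libraries (SD, n = 3 each). Without celastrol replicate 3, which was rich in activity-regulated genes and in thalamic and hippocampal markers, the Homer1 value was 0.54. Shank2 had 0.87 ± 0.51 (SE), or 0.40 without the same library.

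Homer2 (0.22 ± 0.23, SE; interval −0.29 to 0.73) and Homer3 (0.30 ± 0.53, SE; interval −0.90 to 1.505) did not pass either, and their intervals leave room for a difference in both directions. Leaving out tMCAO replicate 1 gave 0.03 for Homer2, leaving out celastrol replicate 2 gave 0.10, and leaving out celastrol replicate 3 gave −0.54 for Homer3. Pan-neuronal markers (12 of 12 tested, none at 0) summed to 3378 to 3968 CPM in celastrol and 3390 to 3798 CPM in tMCAO libraries. Set against the mean of these markers in the same library, Shank1, Shank3 and Homer1 were higher in all celastrol than in all tMCAO libraries, by 0.36, 0.64 and 0.85 on the log2 scale. This scaling reuses the tMCAO levels by which those genes were chosen. The share of all genes without overlap was not computed on this scale. Striatal projection neuron markers (9 of 9 tested, none at 0) summed to 199 to 396 CPM in celastrol and 281 to 948 CPM in tMCAO libraries, and erythrocyte markers to 68.8 to 97.5 and 108.3 to 582 CPM. Their part in these differences was not tested.

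**Figure D3:**
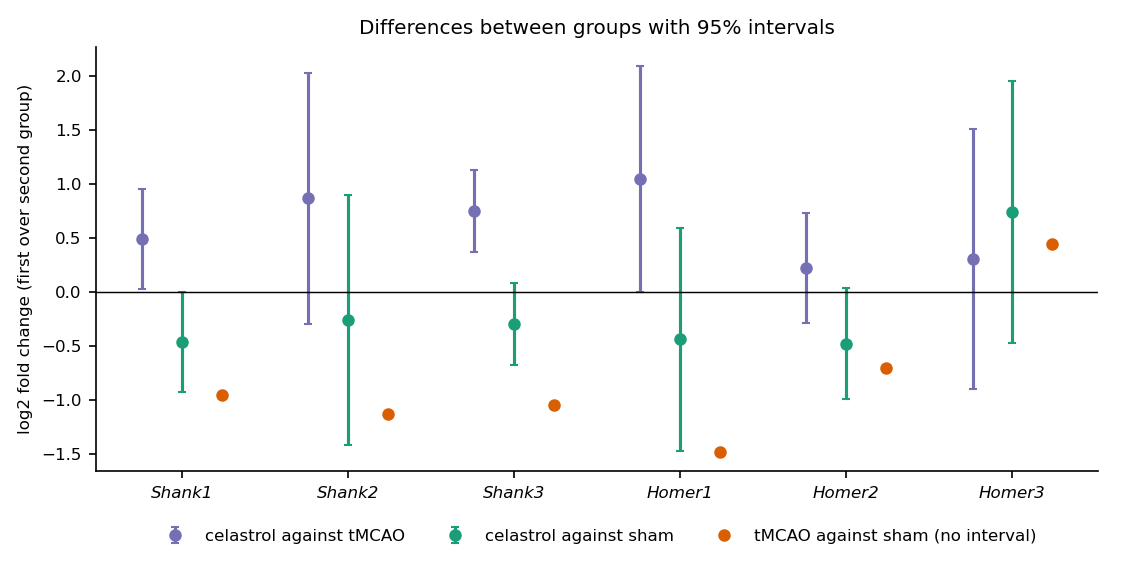
Log2 fold change of each gene (vertical axis, first group over second) for celastrol against tMCAO, celastrol against sham and tMCAO against sham, with 95% intervals from the edgeR fit for the first 2 and the value alone for tMCAO against sham. The interval of Shank3 for celastrol against tMCAO runs from 0.37 to 1.13, while those of Shank2, Homer2 and Homer3 include 0 in both contrasts drawn with intervals.

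The comparison of celastrol with sham asks how far drug-treated tissue lay from tissue without occlusion. Of the 6 genes, 5 had lower and 1, Homer3, a higher fitted level in celastrol libraries (median −0.37, against 0.00 over all genes tested), and 0 passed the test. This contrast shares the sham libraries with the one by which the group was chosen, so their sham values enter both. Intervals and p-values of Shank1, Shank3 and Homer1 are therefore not independent of that choice here either. EdgeR called 1 of 16982 genes (0.00589%, higher; 0.0% lower), Fcgr4, an Fc receptor of myeloid cells, which is named because it was the sole call, after its value was seen. At an unadjusted p under 0.05 there were 1445 genes, and DESeq2 called 380 and limma 1. Shank1 averaged 21.7 ± 4.53 FPKM in celastrol and 28.96 ± 5.14 FPKM in sham libraries (SD, n = 3 each), a log2 fold change of −0.46 ± 0.20 (SE; interval −0.92 to 0.00; edgeR adjusted p = 0.587). Homer2 averaged 4.62 ± 0.83 and 6.25 ± 0.75 FPKM in celastrol and sham libraries (SD, n = 3 each), a log2 fold change of −0.48 ± 0.23 (SE; interval −0.99 to 0.03; edgeR adjusted p = 0.610). Homer2 was the member whose celastrol and sham ranges did not overlap (1 of 6 lower, against 4.09% of all genes tested, and 0 of 6 higher, against 9.19%).

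Shank3 had a log2 fold change of −0.30 ± 0.17 (SE; interval −0.67 to 0.08; edgeR adjusted p = 0.691) for celastrol over sham. With 1 library left out at a time, Shank3 ran from −0.46 (without celastrol replicate 3) to −0.19 (without celastrol replicate 1). Shank1 ran from −0.66 (without celastrol replicate 2) to −0.29 (without celastrol replicate 1), and Homer2 from −0.60 (without celastrol replicate 2) to −0.32 (without celastrol replicate 1). For Homer1 (−0.44 ± 0.46, SE) and Shank2 (−0.26 ± 0.51, SE) the SE exceeded the difference. Without sham replicate 3 these 2 values turned to 0.15 and 0.46, and that of Shank2 was 0.05 without celastrol replicate 1. Homer3 had 0.74 ± 0.53 (SE) with all libraries and −0.10 without celastrol replicate 3. Pan-neuronal markers summed to 3378 to 3968 CPM in celastrol and 3818 to 4065 CPM in sham libraries. Set against their mean, all 6 genes overlapped between celastrol and sham, Homer2 (−0.31) included, and Shank2 stood at 0.03. Infiltrating myeloid markers summed to 12.4 to 41.8 CPM in celastrol and 1.54 to 3.83 CPM in sham libraries. Erythrocyte markers summed to 68.8 to 97.5 CPM in celastrol and 168 to 303 CPM in sham libraries, and striatal projection neuron markers to 199 to 396 and 237 to 1513 CPM. The part of these cells in the differences was not tested.

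The comparison of tMCAO with sham asks what occlusion and reperfusion change. Shank1, Shank3, Homer1 and Homer2 lay lower in all tMCAO than in all sham libraries, Shank2 was lower on average with overlap, and Homer3 overlapped with a higher mean. This is 4 of 6 genes lower without overlap, against 5.99% of all genes tested, and 0 of 6 higher without overlap, against 19.2%. Since the group was chosen with these values known, the shares are set beside each other without being read further. The log2 fold changes were −1.05 for Shank3, −0.95 for Shank1 and −1.13 for Shank2. They were −1.49 for Homer1, −0.70 for Homer2 and 0.44 for Homer3. Without sham replicate 3 the values of Homer1 and Shank2 were −0.90 and −0.41, and without tMCAO replicate 2 that of Homer3 was 0.03. Over all genes edgeR called 0 of 16982 (0.0%), with 2534 at an unadjusted p under 0.05, and DESeq2 called 836 and limma 0.

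Pan-neuronal markers lay lower in all tMCAO libraries, at 3390 to 3798 CPM, than in all sham libraries, at 3818 to 4065 CPM, as a sum. Of the 12 markers, Tubb3 and Elavl3 were lower and Map2 and Uchl1 higher without overlap, and the other 8 overlapped. In bulk tissue, fewer neurons and less RNA per neuron cannot be told apart. Set against the mean of those markers, Shank1 and Shank3 were lower in all tMCAO than in all sham libraries, by −0.64 and −0.75 on the log2 scale. Homer1 (−1.06), Homer2 (−0.43), Shank2 (−0.60) and Homer3 (0.67) then overlapped between tMCAO and sham. This scaling reuses the levels by which Shank1, Shank3 and Homer1 were chosen, and the part of neuron number was not tested. For this contrast too, the share of all genes without overlap was not computed on the scale relative to neuronal markers. Striatal projection neuron markers summed to 281 to 948 CPM in tMCAO and 237 to 1513 CPM in sham libraries. Infiltrating myeloid markers (5 of 6 tested, with Ccr2 under the filter; Arg1 at 0 counts in 2 libraries and S100a8, Ly6c2, Chil3 and Ccr2 in 1 each) summed to 15.2 to 40.4 CPM in tMCAO and 1.54 to 3.83 CPM in sham libraries, and their part was not tested.

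Genes whose proteins bind Shank or Homer, or sit beside them, were followed as lists. Of 14 Shank partners, 0 passed the test in either direction in any of the 3 contrasts. Their median log2 fold change was 0.06 for celastrol over tMCAO, −0.17 for celastrol over sham and −0.25 for tMCAO over sham. For celastrol over tMCAO and tMCAO over sham, the SAPAP gene Dlgap3 had 0.34 ± 0.25 and −0.85 ± 0.25 (SE) and the densin gene Lrrc7 had 0.42 ± 0.21 and −0.67 ± 0.22. The cortactin gene Cttn, an actin-binding Shank partner, had −0.13 ± 0.13 and 0.22 ± 0.13, and the drebrin-like gene Dbnl −0.23 ± 0.13 and 0.06 ± 0.13.

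Of 12 Homer partners, 0 passed in any contrast (medians 0.10 for celastrol over tMCAO, −0.14 for celastrol over sham and −0.30 for tMCAO over sham). The metabotropic receptor gene Grm5 had −0.58 ± 0.29 (SE) in tMCAO over sham, with overlap between the groups. The ryanodine receptor gene Ryr1 had −1.06 ± 0.34 and the inositol trisphosphate receptor genes Itpr1 and Itpr3 −0.71 ± 0.38 and 0.40 ± 0.28 in the same contrast, each with overlap. Ryr1 (0.61 FPKM in tMCAO, 1.18 in sham) and Itpr3 (0.75 and 0.53 FPKM) lay near the filter of 0.5 FPKM. The more abundant Ryr2 (6.85 and 8.52 FPKM) had −0.41 ± 0.17, without overlap. Grm5 had 8.00, 13.0 and 16.6 FPKM in celastrol, 8.35, 12.3 and 15.5 FPKM in tMCAO, and 16.8, 15.2 and 18.4 FPKM in sham libraries, so that its celastrol and tMCAO ranges nearly coincided.

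Of 21 postsynaptic density core genes, 0 passed in any contrast, with medians of 0.26 for celastrol over tMCAO (17 positive), −0.17 for celastrol over sham (4 positive) and −0.43 for tMCAO over sham (2 positive). The PSD-95 gene Dlg4 averaged 38.9 ± 6.37 FPKM in celastrol, 34.7 ± 2.46 FPKM in tMCAO and 45.2 ± 6.71 FPKM in sham libraries (SD, n = 3 each). In tMCAO over sham, the NMDA receptor subunit genes Grin2b and Grin1 had −0.68 ± 0.22 and 0.04 ± 0.22 (SE), and the kinase gene Camk2b 0.13 ± 0.26. Of 14 presynaptic genes, 0 passed in any contrast, with medians of 0.14, −0.18 and −0.35 in the same order of contrasts. The release genes Stx1a (−1.21 ± 0.39) and Unc13a (−1.03 ± 0.29) had the most negative values of that list in tMCAO over sham and Sv2a (−0.10 ± 0.13) the least negative. The 6 Shank and Homer genes had medians of 0.62, −0.37 and −0.9998 in the same contrasts, and no test sets them against these lists.

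**Figure D4:**
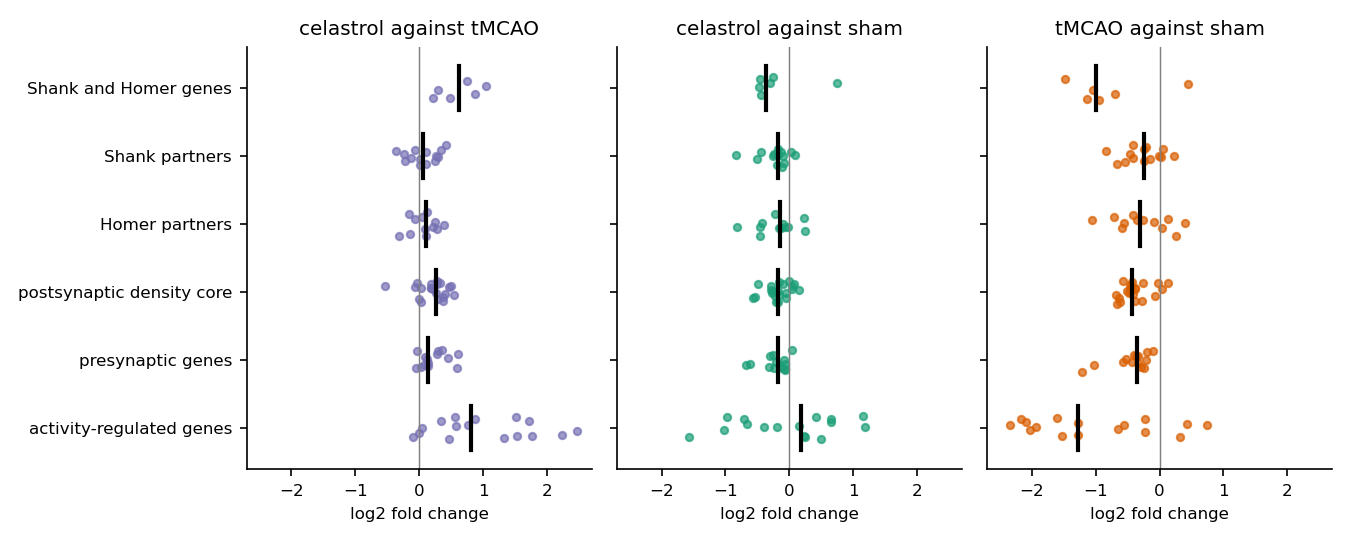
Log2 fold changes (horizontal axis) of the 6 Shank and Homer genes and of 5 gene lists, with 1 point per gene and a black bar at the median, in 3 panels for celastrol against tMCAO, celastrol against sham and tMCAO against sham. The activity-regulated list has a median of 0.82 for celastrol against tMCAO and −1.28 for tMCAO against sham.

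Activity-regulated genes were set beside Homer1, which belongs to that class. Of 16 such genes, 0 passed in any contrast. Their median log2 fold change was 0.82 for celastrol over tMCAO (14 positive), 0.19 for celastrol over sham (9 positive) and −1.28 for tMCAO over sham (3 positive), and no member of the list was without overlap between celastrol and tMCAO. The transcription factor gene Egr4 had 1.39, 1.78 and 10.4 FPKM in celastrol, 1.60, 1.11 and 2.19 FPKM in tMCAO, and 2.49, 5.15 and 12.8 FPKM in sham libraries. Arc, a synaptic capsid-like protein gene, had 30.99, 9.92 and 84.5 FPKM in celastrol, 12.9, 13.2 and 18.1 FPKM in tMCAO, and 22.6, 30.2 and 103.9 FPKM in sham libraries. As for Homer1, both had their highest values in celastrol replicate 3 and sham replicate 3. In tMCAO over sham, Egr2 had −2.34 ± 1.49 (SE), Egr4 −2.17 ± 0.85, Nptx2, which encodes a secreted pentraxin, 0.75 ± 0.65, and Ier2 0.43 ± 0.44.

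Across the 9 libraries Homer1 had an r of 0.78 with the mean of the list, the highest of the 6 members, given as a description. Shank2 had 0.67 with the same list. Homer1 had nearly as high an r with other lists, 0.76 with the inhibitory neuron markers and 0.70 with the Shank partners. The relation of Homer1 to the activity-regulated genes did not hold in every library. Celastrol replicate 2 had the lowest activity-regulated sum of all libraries, 325 CPM, but 10.1 FPKM of Homer1, above all tMCAO libraries.

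**Figure D5:**
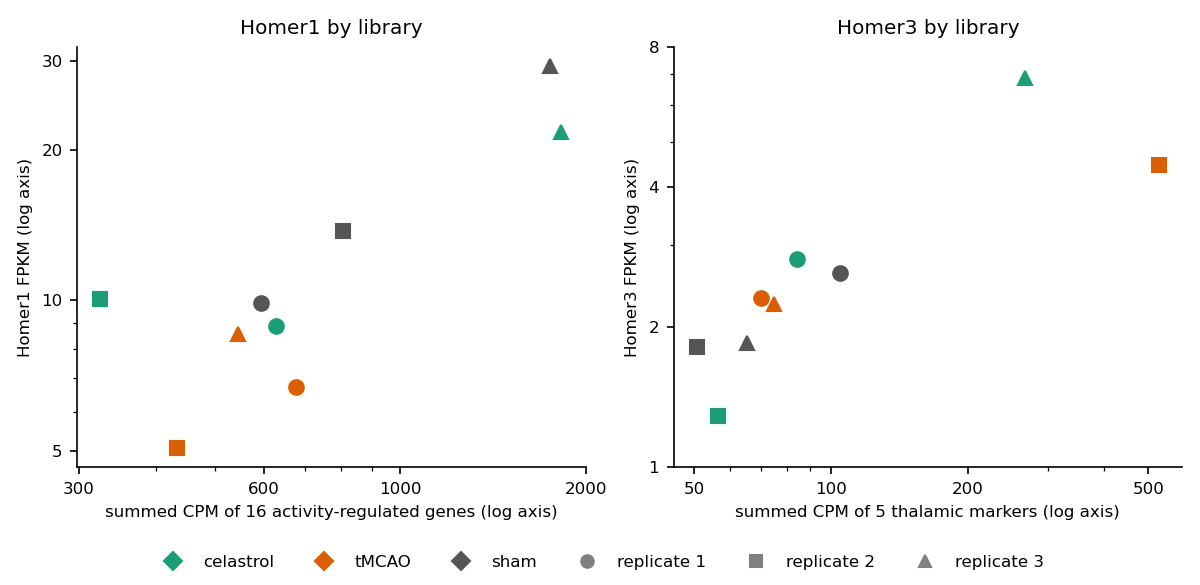
Left, Homer1 FPKM against the summed CPM of 16 activity-regulated genes, and right, Homer3 FPKM against the summed CPM of 5 thalamic markers, with 1 point per library and log axes; colours mark celastrol, tMCAO and sham, and shapes mark replicates. Celastrol replicate 3 and sham replicate 3 stand at the top right on the left, and celastrol replicate 3 and tMCAO replicate 2 on the right.

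Across the 9 libraries the log2 CPM values of the members were described by Pearson's r, without a test, since the libraries share 3 groups and the same scaling. The closest pair was Shank2 and Homer1 (r = 0.92), followed by Shank1 and Shank3 (0.87), Shank1 and Homer2 (0.84), and Shank3 and Homer1 (0.83). Homer3 had r between −0.39 and 0.07 with the other 5. The mean of the thalamic markers had an r of 0.87 with Homer3 and between −0.39 and 0.00 with the other 5. Other lists came close in size, since Homer3 had an r of 0.82 with the hippocampal, 0.73 with the oligodendrocyte and −0.84 with the microglia markers.

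The 3 protein-coding genes most like each member were found by r over the same 9 libraries among 13632 genes. Closest to Shank1 were Ppp5c (0.98), Dpp9 (0.98) and Rab6b (0.97), and closest to Shank3 were Recql (0.96), Cbll1 (0.96) and 2900026A02Rik (0.95). Closest to Shank2 were Qrsl1 (0.95), Gm1043 (0.94) and Zfp382 (0.94). For Homer1 they were Fmnl1 (0.96), Egr4 (0.96) and Eif4g2 (0.96). For Homer2 they were Tbck (0.98), Vezt (0.98) and Ddn (0.97), and for Homer3 Zfp423 (0.95), Ptpdc1 (0.95) and Cidea (0.95). The highest of so many values of r over 9 libraries is high by selection, so these names describe the libraries only.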

How the data were processed

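Per the labels' protocols, hemisphere RNA was depleted of ribosomal RNA and sequenced in paired ends. The submitters' processing notes name mm10 as the build and list, without roles, HISAT2 2.0.4, cutadapt 1.9, DESeq2, edgeR and StringTie 1.3.4d. The authors deposited 1 table with estimated counts, all whole numbers, and FPKM values per gene and library. Every per-sample column matched a sample.

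A gene was tested where its FPKM reached 0.5 in 3 or more libraries (16982 genes). Counts of all 9 libraries (60392960 to 75158625 each) entered 1 two-sided quasi-likelihood fit in edgeR 4.0.16 (R 4.3.3) with TMM scaling and a mean per group. Benjamini-Hochberg adjustment covered every tested gene, with 0.05 as the limit. An SE was taken as the absolute log2 fold change over the root of F. Log2 CPM had a prior count of 2, and levels are the deposited FPKM. DESeq2 1.42.0 and limma 3.58.1 on log2(FPKM + 0.5) were alternatives.

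On simulated counts for celastrol against tMCAO (16982 genes), edgeR recovered 88% of 100 genes changed by 2 and 97% of 100 genes changed by 3 on the log2 scale. No smaller change was simulated. The 6 members had log2 fold changes of 0.22 to 1.05 in this contrast, so recovery at those sizes was not measured. Among the genes left unchanged in the simulation, edgeR made 5 false calls, DESeq2 58 and limma 9. Members and gene lists were chosen with earlier results of these data known. The text names all 6 members and, per list, up to 2 genes at each end of the log2 fold changes, plus the binding partners Grm5 and Dlg4. Arc was added after its values were seen. Some genes that this rule picks are not reported here.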

Additional observations from a re-analysis of the deposited data

How the results depend on the processing

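For celastrol against tMCAO and against sham, 135 and 133 of 138 refits of the 6 genes kept direction and side of the threshold, and the others reversed without passing it. The edgeR adjusted p of every member was 0.587 or more in the main fit, so most refits stayed far from the threshold. The nearest was Shank3 for celastrol against tMCAO with DESeq2, at an adjusted p of 0.0582. Some refits left out a library of the group not compared, which barely moved the values. These counts therefore do not measure how robust the values are. For celastrol against tMCAO, Homer3 ran from −0.54 (without celastrol replicate 3) to 0.71 (without tMCAO replicate 2) with 1 library left out. For celastrol against sham, Shank2 ran from −0.73 (without celastrol replicate 3) to 0.46 (without sham replicate 3), with 0.05 without celastrol replicate 1. Homer1 ran from −0.95 (without celastrol replicate 3) to 0.15 (without sham replicate 3), and Homer3 from −0.10 (without celastrol replicate 3) to 1.13 (without celastrol replicate 2). After the data had been seen, 2 sets of libraries were also left out. Without celastrol and sham replicate 3, the richest in activity-regulated genes, Homer3 was −0.54 for celastrol against tMCAO and −0.18 for celastrol against sham. Without celastrol replicate 3, tMCAO replicate 2 and sham replicate 1, the richest in thalamic and hippocampal markers, Homer3 was −0.13 for celastrol against tMCAO. For Homer1, celastrol against tMCAO gave 0.54 without the first set and 0.37 without the second, and celastrol against sham −0.36 and −1.24. For tMCAO against sham every direction held. Scaling to pan-neuronal markers gave medians over all genes of −0.10, 0.20 and 0.30 for celastrol against tMCAO, celastrol against sham and tMCAO against sham (−0.00, 0.00 and 0.01 with TMM), and Shank1 and Shank3 were then −0.66 and −0.76 for tMCAO against sham.

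Counts of called genes over the table varied, and the cause was not tested. For celastrol against tMCAO (0 called), DESeq2 called 19, leaving out 1 library gave 0 to 2 (2 without tMCAO replicate 2), and leaving out the thalamus-rich set gave 2. For celastrol against sham (1 called), DESeq2 called 380, an FPKM minimum of 1 gave 2, limma with a pseudocount of 0.1 gave 3, the newer quasi-likelihood form 6, no filter 3, a fit of the 2 groups alone 4 and pan-neuronal scaling 3. Leaving out 1 library gave 0 to 43 (43 without celastrol replicate 2), and either set left out gave 0. For tMCAO against sham (0 called), DESeq2 called 836, limma with a pseudocount of 0.1 gave 2, the newer form 2, the 2 groups alone 30, and leaving out 1 library 0 to 90 (90 without celastrol replicate 2).

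Over all tested genes, same-numbered libraries of different groups had little in common (r of their deviations −0.16 to 0.20). Shank2 and Homer1 were nonetheless highest in replicate 3 of each group. With the replicate number as a block, 0, 22 and 51 genes were called for celastrol against tMCAO, celastrol against sham and tMCAO against sham. Without the block these were 0, 1 and 0. Depth limits Homer3 most, with 338 to 2016 counts per library.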
